A study of Rattus norvegicus with 12 samples.

Results

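Oxidative phosphorylation makes most of a cell's ATP in the inner mitochondrial membrane. Complexes I and II take electrons from NADH and succinate, complex III passes them to cytochrome c, complex IV hands them to oxygen, and complex V (ATP synthase) uses the proton gradient built on the way. Most subunits are encoded in the nucleus and imported, and the inner medulla of the kidney, poor in oxygen, is known for relying much on glycolysis. The genes described here are the nuclear genes of these complexes, measured in inner medullary collecting duct (IMCD) cells of rat kidney, the epithelium of the last stretch of the nephron.

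The genes were chosen by name: probe sets with 1 gene symbol that starts with Ndufa, Ndufb, Ndufc, Ndufs, Ndufv, Sdha, Sdhb, Sdhc, Sdhd, Uqcr, Cox4, Cox5, Cox6, Cox7, Cox8, Cyc1 or Atp5. This gave 83 genes, called members below, of the 14506 genes tested. The members came from 95 probe sets of an Affymetrix Rat Gene 1.0 ST array, and 11 members had several probe sets, of which the one with the highest mean was used. By their known roles, 36 members belong to complex I, 7 to complex II, 7 to complex III, 17 to complex IV and 16 to complex V. The names also took in 7 assembly factors (Ndufaf and Sdhaf genes and Cox7a2l), the inhibitor Atp5if1 and 2 loci named as pseudogenes, Ndufs6-ps1 and Cox6c-ps1. Whether the probe sets of these loci also read the parent gene was not tested. The deposited log2 mean of Cox6c-ps1 was 3.76, against 11.64 for Cox6c. Of 17 name starts, Cyc1 matched no probe set with 1 symbol and is not analysed here, and neither are Cox6b1, Cox7a1 and Ndufa4l2.

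Primary cultured IMCD cells from kidneys of male rats of the SD (Sprague-Dawley) strain, 7 weeks old, were all first kept at 640 mOsm/kg for 4 days. They then spent 48 h at 300 mOsm/kg (300_48h) or stayed at 640 mOsm/kg (640_48h), 6 days in all, or spent 24 h at 300 mOsm/kg (300_24h) or at 640 mOsm/kg (640_24h), 5 days in all. The 640 groups are the controls, and each group has 3 samples of 1 array each. Nothing in the labels tells whether samples of 1 group were separate animals, cultures or repeats, and the p-values speak only of the spread between these arrays, which may be technical. Short codes in the sample descriptions give another osmolality for the 300_24h and 640_48h groups; titles, treatments and the design text give 300 and 640, used here.

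The arrays were not on one scale. The 6 arrays at 48 h had medians of 6.81 to 6.97 (deposited log2 values of the genes tested). Of the arrays at 24 h, 4 had medians of 7.43 to 7.58, while 300_24h replicate 1 and 640_24h replicate 3 stood apart with 6.89 and 6.90. Each array was therefore centred on its median, and the levels below are log2 values minus that median ("centred log2 level"), so that levels of different genes cannot be set against each other. Genes of the collecting duct principal cell were present: the water channel Aqp2 lay at -0.37 to 0.57 on the 300 mOsm/kg arrays and at 2.76 to 4.78 on the 640 mOsm/kg arrays, and its log2 change was -4.41 at 48 h and -3.65 at 24 h. Markers of intercalated cells had mean levels of -2.16 to -2.00 in 300_48h, -2.24 to -2.00 in 640_48h, -2.74 to -2.04 in 300_24h and -2.86 to -1.92 in 640_24h.

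After the move to 300 mOsm/kg, no oxidative phosphorylation gene had a change that passed the test at either time. In limma's fit over all genes, 0 of 83 members passed an adjusted p of 0.05 at 48 h, where 1.85% of all genes did, and 0 of 83 at 24 h, where 0.655% of all genes did. At an unadjusted p under 0.05 there was 1 member at 48 h (Ndufa3, which was lower, against 8.18% of all genes in either direction and 4.59% lower) and 0 at 24 h (against 5.45%). The smallest adjusted p of a member was 0.58 at 48 h and 1 at 24 h. None of the alternative fits and none of the fits without 1 array called a member in either comparison.

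The members' log2 changes were small and leaned to the positive side. At 48 h the median over members was 0.15, against 0.02 over all genes, and 69 of 83 members lay above 0, against 54.6% of all genes. At 24 h the median was 0.07, against -0.04 over all genes, with 56 of 83 members above 0, against 40.9% of all genes. At 48 h that lean hung on single arrays. Without 640_48h replicate 3 the members' median was 0.005, against 0.016 over all genes, and without 300_48h replicate 2 it was 0.034, against 0.031. At 24 h the members' median was -0.029 without 300_24h replicate 1, against -0.088 over all genes. Without both arrays that stood apart it was 0.023, against -0.041, so the members stayed above all genes there. Over all fits without 1 array the median ran between 0.005 and 0.216 at 48 h and between -0.029 and 0.141 at 24 h. In these bulk samples, fewer cells of a type and less RNA per cell cannot be told apart.

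The 95% intervals bound how large a change these data could have hidden. At 48 h the interval of 80 of 83 members lay within a 2-fold change in either direction and that of 26 within 1.5-fold. At 24 h, 82 members lay within 2-fold and 39 within 1.5-fold. The median half-width was 0.48 on the log2 scale at either time. Only Ndufa3, Ndufv2 and Atp5pf at 48 h and Ndufa3 at 24 h had an interval that reached past 2-fold.

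**Figure D1:**
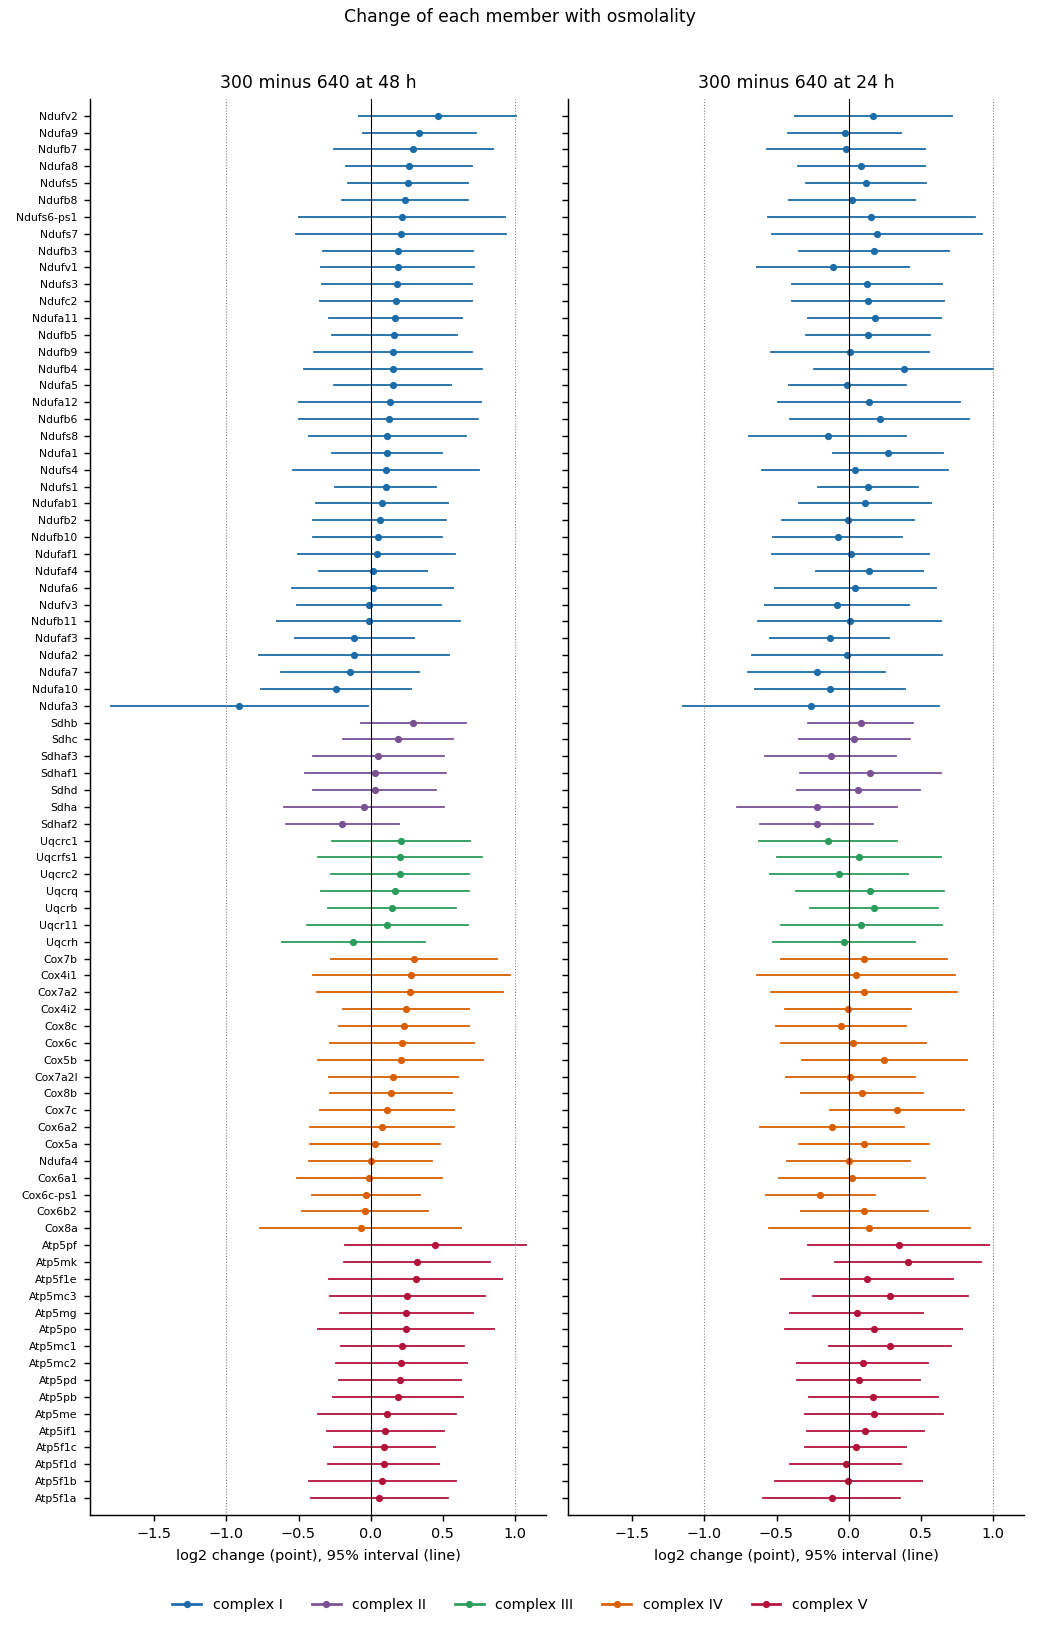
Log2 change of each of the 83 members (x axis; points, with 95% intervals as lines, and dotted lines at a 2-fold change), 300 minus 640 mOsm/kg, at 48 h (left) and 24 h (right), coloured by complex. Ndufa3 at 48 h (-0.91) stands farthest from 0 and has the only interval that leaves out 0.

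Averaged over both times, 6 arrays against 6, again 0 members passed in limma, against 3.43% of all genes, and 1 member, Atp5mk, which was higher, had an unadjusted p under 0.05, against 11.4% in either direction and 5.19% higher. The median change was 0.11, against -0.01 over all genes, and 67 of 83 lay above 0, against 47.3%. The members' median was 0.041 without 640_48h replicate 3 (52 above 0), against -0.01 over all genes. It was 0.059 without 300_24h replicate 1, against -0.038, and 0.074 without 640_24h replicate 2, against -0.044. Here 68 of 83 intervals lay within 1.5-fold and 82 within 2-fold. With array weights, which gave 640_24h replicate 1 a weight of 5.46 and 640_24h replicate 2 one of 0.35, Atp5pf alone passed, against 10.1% of all genes. When the change at 48 h was set against the change at 24 h, limma called 0 of 83 members (against 0.0276% of all genes), and 0 had an unadjusted p under 0.05 (against 0.903%). The median of that difference was 0.05, against 0.04 over all genes, with 55 members above 0, against 60.1%. Its sign hung on single arrays: it was -0.089 without 640_48h replicate 3 (28 above 0), -0.033 without 300_48h replicate 2 (35 above 0) and up to 0.159 in the other fits without 1 array.

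Complex I, the NADH dehydrogenase, held both the lowest member and the highest one at 48 h. Ndufa3, an accessory subunit of the membrane arm, lay at 2.18, 3.75 and 2.58 in 300_48h, against 3.77, 4.58 and 2.88 in 640_48h. The groups overlapped, and the spread between replicates of Ndufa3 (pooled SD 0.66) was the widest of all members. Its log2 change was -0.91 ± 0.42 (SE; limma adjusted p = 0.58). At 24 h Ndufa3 lay at 2.05, 2.80 and 2.62 in 300_24h and at 2.92, 3.08 and 2.25 in 640_24h, which overlapped too, with a change of -0.26 ± 0.42.

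Ndufv2, a core iron-sulfur subunit of the module where electrons enter, lay at 2.95, 2.76 and 2.90 in 300_48h, against 2.49, 2.39 and 2.35 in 640_48h. All arrays at 300 were higher than all at 640, and the change was 0.46 ± 0.26 (limma adjusted p = 0.80). At 24 h the groups overlapped, with 2.86, 1.93 and 1.88 in 300_24h and 1.73, 1.86 and 2.57 in 640_24h. Ndufb4, an accessory subunit of the membrane arm with the highest change of complex I at 24 h, lay at 2.21, 1.94 and 1.68 in 300_24h, against 1.36, 1.76 and 1.57 in 640_24h. Replicate 3 at 300 lay below replicate 2 at 640, so these overlapped, and the change was 0.38 ± 0.29. Over the 36 members of complex I the median change was 0.13 at 48 h (29 above 0) and 0.05 at 24 h (23 above 0).

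Complex II, the succinate dehydrogenase that also works in the citric acid cycle, had a median change of 0.03 over 7 members at 48 h and 0.04 at 24 h. Its iron-sulfur subunit Sdhb had the highest change of the complex at 48 h and lay at 3.66, 3.65 and 3.64 in 300_48h, against 3.40, 3.36 and 3.31 in 640_48h. The groups did not overlap, and the change was 0.30 ± 0.17 (limma adjusted p = 0.85). At 24 h Sdhb overlapped, with 3.52, 3.11 and 3.03 in 300_24h and 2.90, 3.21 and 3.31 in 640_24h. Sdhaf2, a factor that helps attach the flavin, had the lowest change of the complex at 48 h and at 24 h. It lay at 3.35, 3.69 and 3.45 in 300_48h, against 3.68, 3.92 and 3.49 in 640_48h, and at 3.13, 3.54 and 3.28 in 300_24h, against 3.54, 3.76 and 3.30 in 640_24h. Both pairs of groups overlapped, with changes of -0.20 ± 0.18 and -0.22 ± 0.18. The other assembly factor named, Sdhaf1, which serves the iron-sulfur subunit, had the highest change of the complex at 24 h, at 0.15 ± 0.23.

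Complex III, the cytochrome bc1 complex, had a median change of 0.17 at 48 h (6 of 7 above 0) and 0.07 at 24 h (4 of 7 above 0). Uqcrc1, a core protein of the matrix side, lay at 3.09, 2.97 and 3.50 in 300_48h, against 3.46, 2.73 and 2.73 in 640_48h, which overlapped, with a change of 0.21 ± 0.22. The same gene gave -0.14 ± 0.22 at 24 h, from 2.99, 2.58 and 2.75 in 300_24h and 2.78, 2.78 and 3.20 in 640_24h. Uqcrb, an accessory subunit, had 0.17 ± 0.21 at 24 h, the highest of the complex. Uqcrh, the hinge protein beside cytochrome c1, was the lowest at 48 h with -0.12 ± 0.23.

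Complex IV, cytochrome c oxidase, had a median change of 0.14 at 48 h (13 of 17 above 0) and 0.05 at 24 h (12 of 17). Cox7b, an accessory subunit, was highest at 48 h: 2.96, 2.94 and 2.83 in 300_48h, against 2.69, 2.83 and 2.31 in 640_48h. One array of 640_48h was as high as the lowest of 300_48h, so the groups overlapped, and the change was 0.30 ± 0.27. Cox7c, another accessory subunit, was highest at 24 h, at 3.69, 3.49 and 3.47 in 300_24h, against 3.34, 3.28 and 3.03 in 640_24h. Those groups did not overlap, with a change of 0.34 ± 0.22 (limma adjusted p = 1.0), while at 48 h they did, with 0.11 ± 0.22. Ndufa4, first assigned to complex I and later found in complex IV, had changes of 0.0006 at 48 h and -0.0002 at 24 h, each ± 0.20.

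Several subunits of complex IV exist as a widespread form and a form known from particular tissues. Cox4i1, the widespread form of subunit 4, lay at 3.33, 3.58 and 4.07 in 300_48h and at 3.98, 3.34 and 2.82 in 640_48h. Cox4i2, known from lung and from hypoxic cells, lay at -1.96, -1.53 and -1.71 in 300_48h and at -1.97, -1.65 and -2.31 in 640_48h. Both overlapped, with changes of 0.28 ± 0.32 for Cox4i1 and 0.24 ± 0.20 for Cox4i2, and at 24 h of 0.05 ± 0.32 and -0.006 ± 0.20. Cox6a1, the widespread form of subunit 6a, changed by -0.010 ± 0.24 at 48 h, and Cox6a2, the heart and muscle form, by 0.08 ± 0.23. Cox8a, the widespread form of subunit 8, had -0.07 ± 0.33 and its heart and muscle form Cox8b 0.14 ± 0.20. Cox7a2, the liver-type form of subunit 7a, had 0.27 ± 0.30, and Cox6b2, the testis form of subunit 6b, -0.04 ± 0.21. None of these isoforms passed the test. The forms known from particular tissues were low in the members' range of deposited log2 means (3.76 to 12.14). Cox4i2 had 5.07, Cox6a2 5.89, Cox8b 4.36 and Cox6b2 5.59. Whether these forms were expressed was not tested.

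Complex V, ATP synthase, was the complex with every member above 0 at 48 h (16 of 16, median 0.21), and 13 of 16 lay above 0 at 24 h (median 0.12). Without 640_48h replicate 3, 11 of 16 lay above 0 at 48 h (median 0.034, against 0.016 over all genes). Without 300_48h replicate 2, 300_48h replicate 3 or 640_48h replicate 2 there were 14, 15 and 14. At 24 h, 9 of 16 lay above 0 without 300_24h replicate 1 (median 0.022, against -0.088 over all genes). Atp5pf, the F6 subunit of the stator stalk, lay at 1.89, 2.68 and 2.28 in 300_48h, against 1.77, 2.41 and 1.33 in 640_48h. At 24 h it lay at 1.82, 2.37 and 1.97 in 300_24h, against 1.42, 2.25 and 1.45 in 640_24h. Replicate 2 was the highest array in all 4 groups, and the groups overlapped, with changes of 0.45 ± 0.29 at 48 h and 0.35 ± 0.29 at 24 h. Over both times Atp5pf had the highest mean change of all members, 0.40 ± 0.21 (limma adjusted p = 0.55).

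Atp5mk, a small subunit of the membrane part, lay at 3.14, 3.51 and 2.91 in 300_48h, against 2.60, 3.49 and 2.51 in 640_48h, which overlapped. At 24 h it lay at 3.16, 2.81 and 3.02 in 300_24h, against 2.59, 2.51 and 2.64 in 640_24h, which did not overlap. Its changes were 0.32 ± 0.24 at 48 h and 0.41 ± 0.24 at 24 h, and the mean over both was 0.37 ± 0.17 (limma adjusted p = 0.41). Atp5f1a, the alpha subunit of the F1 head, sat at the low end of the complex, with 0.06 ± 0.22 at 48 h and -0.12 ± 0.22 at 24 h.

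**Figure D2:**
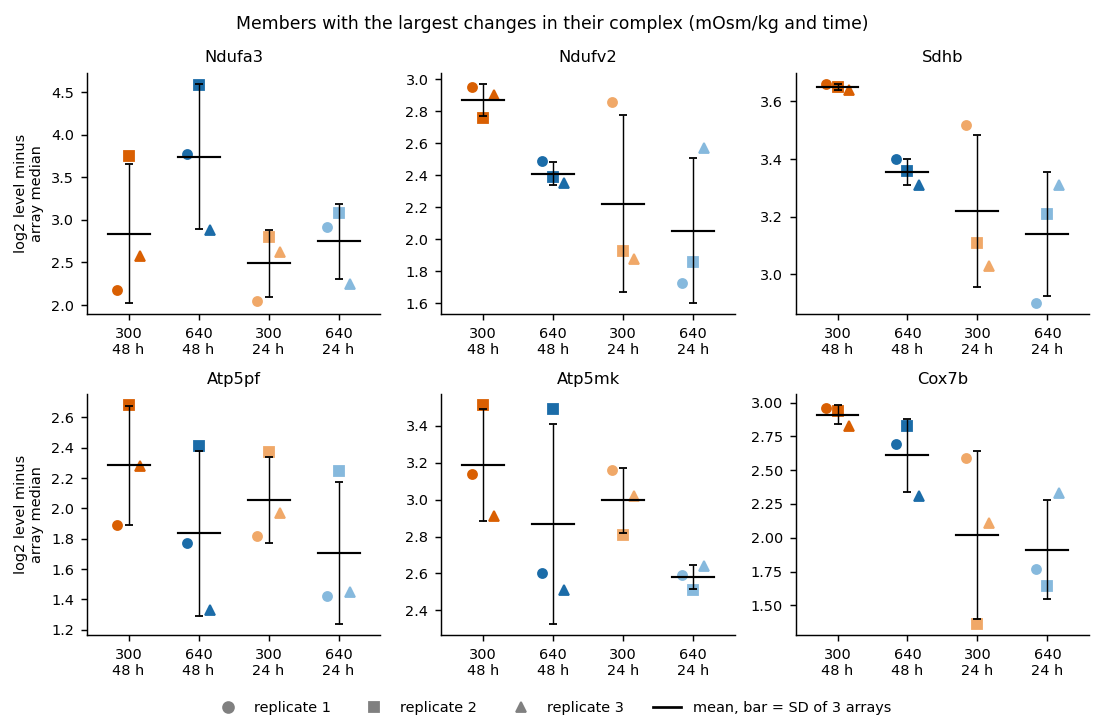
Centred log2 level of 6 members on each of the 12 arrays (y axis, log2 level minus array median; each panel has its own range), by group from 48 h to 24 h with 300 left of 640 mOsm/kg; lines and bars are the mean and SD of 3 arrays. Sdhb and Ndufv2 have all 300_48h arrays above all 640_48h arrays, while Ndufa3 and Atp5pf overlap at both times.

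Arrays of the compared groups did not overlap for 4 members at 48 h, all higher at 300 (Ndufa8, Ndufa9, Ndufv2 and Sdhb, 4.82% of members, against 7.83% of all genes), and 0 members were lower in this way, against 7.02%. At 24 h there were 5 such members, all higher at 300 (Atp5mc1, Atp5mk, Cox7c, Ndufa1 and Uqcrq, 6.02%, against 3.7% of all genes), and 0 lower, against 4.86%. With 3 arrays against 3, an exact permutation test of 1 gene cannot give a p below 0.1. Where a member had several probe sets, these agreed in sign at both times for 10 of 11 members, Ndufv3 being the exception, and the range between probe sets of a member was at most 0.11 at 24 h and 0.16 at 48 h.

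With time in culture, most members had positive changes on centred arrays, again without a call. The median change from 24 h to 48 h was 0.34 at 300 mOsm/kg, against 0.05 over all genes, with 76 of 83 members above 0, against 58.6%. At 640 mOsm/kg it was 0.22, against 0.00 over all genes, with 73 of 83 above 0, against 50.3%, and 0.381 without 640_48h replicate 3. In limma 0 of 83 members passed at either osmolality, against 0.255% of all genes at 300 and 0.138% at 640, with smallest adjusted p of 0.28 in both. At an unadjusted p under 0.05 there were 15 members at 300, 14 higher and 1 lower, against 7.62% of all genes (4.61% higher and 3.01% lower). At 640 there were 8 members, all higher, against 6.58% of all genes (3.65% higher).

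By complex, the median change with time at 300 mOsm/kg was 0.33 in complex I, 0.20 in complex II, 0.29 in complex III, 0.41 in complex IV and 0.38 in complex V. At 640 mOsm/kg it was 0.22, 0.20, 0.19, 0.28 and 0.27 in the same order of complexes. The members named here for time were picked after their values were seen. Cox7b had the largest change at 300, 2.96, 2.94 and 2.83 in 300_48h, against 2.59, 1.36 and 2.11 in 300_24h. All arrays at 48 h were higher than all at 24 h, with a change of 0.89 ± 0.27 (limma adjusted p = 0.28).

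Cox6b2, the testis form of subunit 6b, lay at -1.40, -0.83 and -1.26 in 300_48h, against -1.53, -1.85 and -2.06 in 300_24h, and at -0.93, -1.0 and -1.44 in 640_48h, against -2.12, -1.87 and -1.78 in 640_24h. Neither pair of groups overlapped on centred arrays, with changes of 0.65 ± 0.21 at 300 and 0.80 ± 0.21 at 640 (limma adjusted p = 0.33 and 0.28). Cox6b2 was dim, with deposited log2 values of 5.12 to 6.05 (mean 5.59), and on those values both pairs overlapped. Cox7a2l, a factor that joins complexes III and IV into supercomplexes, had 3.39, 3.88 and 3.61 in 300_48h, against 3.10, 2.80 and 2.88 in 300_24h, without overlap, and a change of 0.70 ± 0.21. Its arrays at 640 overlapped, with 3.74, 3.67 and 3.00 in 640_48h, against 2.71, 3.05 and 2.98 in 640_24h, and a change of 0.55 ± 0.21. Cox5a, an accessory subunit of the matrix side, did not overlap at 300 (4.42, 4.89 and 4.56 in 300_48h, against 4.42, 4.04 and 3.83 in 300_24h, the closest arrays both at 4.42 to 2 decimals) or at 640 (4.63, 4.90 and 4.25 in 640_48h, against 3.80, 3.98 and 4.19 in 640_24h). Its changes were 0.53 ± 0.21 and 0.60 ± 0.21. On the deposited values the arrays of Cox7a2l at 300 and those of Cox5a at both osmolalities overlapped as well.

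Among other complexes, Ndufa6, which binds the acyl carrier protein in complex I, lay at 1.63, 2.07 and 1.71 in 300_48h, against 1.66, 0.69 and 0.95 in 300_24h. The arrays overlapped because of 300_24h replicate 1, one of the arrays that stood apart, and the change was 0.70 ± 0.26. Uqcrfs1, the Rieske iron-sulfur protein of complex III, had 2.38, 2.32 and 2.33 in 300_48h, against 2.30, 0.99 and 1.73 in 300_24h. Its change was 0.67 ± 0.27. These centred levels did not overlap, but the deposited values did. Ndufa10, an accessory subunit of complex I, had a negative change, with -1.62, -1.30 and -1.64 in 300_48h, against -1.39, -0.62 and -0.97 in 300_24h, and a change of -0.53 ± 0.24. Another 2 core subunits lay near 0: Ndufs1, of the electron input module, changed by -0.09 ± 0.16 at 300, and Atp5f1c, the gamma subunit of the rotating stalk, by -0.10 ± 0.16. In all, 13 members had centred levels at 48 h that were all higher than those at 24 h at 300 (15.7%, against 7.29% of all genes). At 640 there were 8 (9.64%, against 4.95%), and 0 were all lower, against 4.85% and 4.63%.

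The sign of the members' median change with time depended on the scaling of the arrays. On the deposited values, without centring, the median change of the members was -0.093 at 300, with 20 of 83 above 0, and -0.198 at 640, with 14 of 83 above 0. The median of all genes was then -0.38 and -0.41, so relative to all genes the members lay higher in both scalings. With cyclic loess, which fits the arrays to each other over the range of levels, the medians were 0.23 at 300 (73 above 0) and 0.19 at 640 (71 above 0), with all genes at -0.004 and -0.003. With array weights limma called 24 members at 300 (23 higher), against 13.1% of all genes, and 11 at 640 (10 higher), against 6.8%. Without the pair of arrays that stood apart at 24 h it called 4 at 300 (Cox7b, Ndufa6, Ndufs6-ps1 and Ndufv2, against 1.51% of all genes) and 0 at 640.

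**Figure D3:**
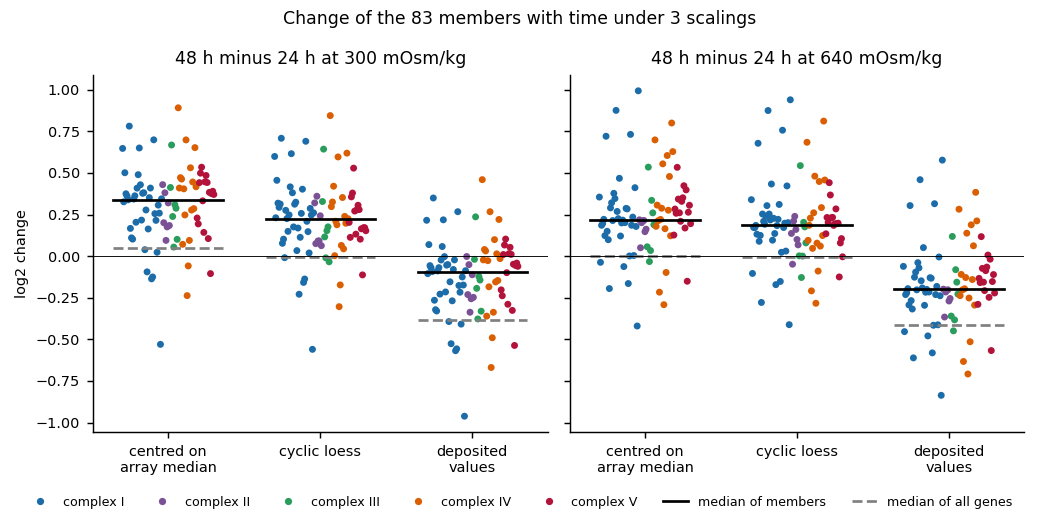
Log2 change of each of the 83 members from 24 h to 48 h (48 h minus 24 h; points, by complex) under 3 scalings of the arrays, at 300 (left) and 640 mOsm/kg (right); solid lines are medians of the members and dashed lines medians of all genes tested. The members' median is 0.34 and 0.22 on centred arrays and -0.093 and -0.198 on deposited values, above the median of all genes each time.

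Fibroblast markers moved with time as well. Of 7 listed, Col1a1, Dcn and Pdgfrb rose at 48 h, by 1.07, 1.29 and 0.91 on the log2 scale at 300 and by 1.13, 1.31 and 0.99 at 640 (limma adjusted p of 0.0034 to 0.039). The mean level of the list was 0.55 to 1.12 in 300_48h, 0.56 to 0.88 in 640_48h, -0.26 to 0.08 in 300_24h and -0.50 to 0.14 in 640_24h, with Lum at -5.25 to -3.88 over the 12 arrays. Their part in the members' values was not tested. With osmolality, 4 of 9 principal cell markers passed as lower at 48 h (Aqp2, Aqp3, Avpr2 and Slc14a2) and 2 of 9 at 24 h (Aqp2 and Avpr2). None passed as higher. Krt8 lay at 6.0, 5.71 and 5.98 in 300_48h, against 5.65, 5.2 and 5.61 in 640_48h. Krt18 lay at 6.22, 5.96 and 6.2, against 5.82, 5.5 and 5.79. Both were thus higher at 300 without overlap at 48 h, and both overlapped at 24 h. At 48 h Gata3 was lower at 300 without overlap, Scnn1a overlapped, and the closest Aqp4 arrays were both at 1.77 to 2 decimals.

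Markers of other cell types fell with osmolality too. At 48 h these were Aqp1, of proximal tubule and thin limb, by 2.48, Slc12a1, the cotransporter of the thick ascending limb, by 1.17, Emcn, of endothelium, by 1.32, and Csf1r, the macrophage growth factor receptor, by 0.69 on the log2 scale (limma adjusted p of 6.6e-05, 0.0074, 0.035 and 0.029). They were 1 of 5 proximal tubule markers, 2 of 4 limb markers (Aqp1 in both lists), 1 of 5 endothelial and 1 of 6 macrophage markers, against 1.33% of all genes lower. At 24 h only Aqp1 among them fell, by 1.99. The mean level of the macrophage list was -0.14 to 0.19 in 300_48h, against 0.30 to 0.59 in 640_48h, and -0.59 to -0.25 in 300_24h, against -0.26 to 0.10 in 640_24h. That of the endothelial list was -1.12 to -0.73 in 300_48h, against -0.71 to -0.20 in 640_48h, and -1.15 to -0.88 in 300_24h, against -0.87 to -0.48 in 640_24h. The limb list lay at -1.05 to -0.86 in 300_48h, against -0.04 to 0.15 in 640_48h, and at -1.02 to -0.87 in 300_24h, against -0.44 to 0.07 in 640_24h. The proximal tubule list lay at -1.02 to -0.98 in 300_48h, against -0.45 to -0.29 in 640_48h, and at -1.23 to -0.93 in 300_24h, against -0.91 to -0.44 in 640_24h. Both these list means include Aqp1. At 48 h Slc34a1, Slc5a2 and Slc22a6 of the proximal tubule list overlapped between 300 and 640, while Lrp2 was lower at 300 without overlap and did not pass. In the limb list Umod and Cldn16 overlapped. The part of these cells in the values with osmolality was not tested.

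Members varied together from array to array within a group. Taking each array's deviation from its group, the median correlation between pairs of members was 0.35 over 3403 pairs, against 0.09 over all pairs of genes tested. Under cyclic loess it was 0.30, against -0.0002. The median was 0.32 for pairs within a complex and 0.36 for pairs from different complexes. These correlations are over 12 arrays that all members share, with their scale and RNA, and are given as a description. The median of a member with the others was above 0 for 78 of 83, highest for Atp5pd, the d subunit of the stator stalk (0.61), and below 0 for 5: Ndufs1, Ndufa10, Ndufv1, Sdhc and Sdha. Ndufv1 and Sdha are the flavoproteins of complexes I and II.

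The array medians of the members show the size of this shared movement. The median deviation of the 83 members from their mean over 12 arrays was 0.06, 0.38 and 0.23 in 300_48h and 0.21, 0.29 and -0.19 in 640_48h. It was 0.09, -0.25 and -0.11 in 300_24h and -0.17, -0.24 and -0.08 in 640_24h. The 300 and 640 groups overlapped at both times. At 48 h, 640_48h replicate 3 was the only array below 0, and at 24 h only 300_24h replicate 1 was above it. The SD between replicates of this median was 0.18. That SD describes single arrays, so it cannot be set directly against a change between means of 3 arrays.

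**Figure D4:**
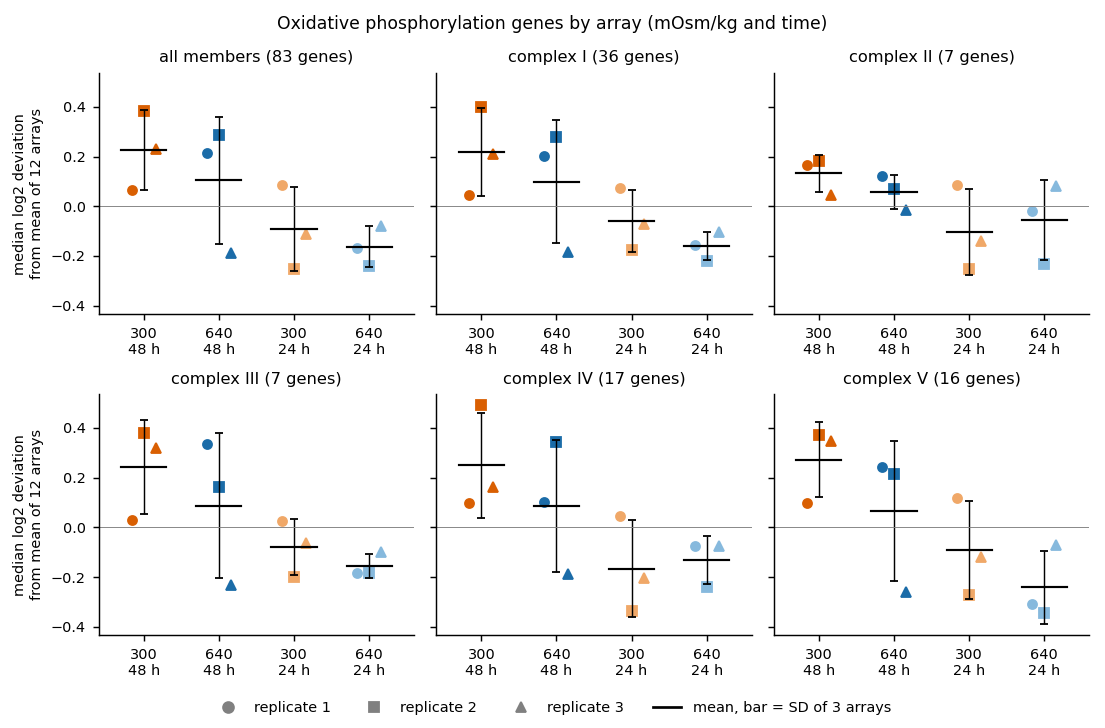
Median log2 deviation of the members from their mean over the 12 arrays (y axis), on each array, for all 83 members and for each complex; lines and bars are the mean and SD of 3 arrays per group, from 48 h to 24 h with 300 left of 640 mOsm/kg. Arrays of 300 and 640 overlap at both times, and 640_48h replicate 3 lies at -0.19 for all members, apart from the other 48 h arrays.

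The promoters of these genes are known to carry sites for the nuclear respiratory factor NRF1, for the ETS factor GABP and for YY1. RefSeq promoters (build GRCr8, 250 bases before to 50 after the start) were found for 73 of 83 members and searched on both strands for TGCGCA (the centre of the NRF1 half-site), CCGGAAG (ETS, GABP) and ATGGCGG (YY1), counting matches also where they overlap. TGCGCA was in 30.1% of member promoters, against 10.4% of the promoters of genes tested and 7.55% of all 27457 promoters. CCGGAAG was in 32.9%, against 12.9% and 9.21%, and ATGGCGG in 20.5%, against 7.39% and 5.21%. Promoters with at least 1 of the 3 made up 61.6% of member promoters, against 26.3% and 19.2%, with a median GC content of 57% in members, 58% in genes tested and 52.3% in all. By complex the share with at least 1 was 60.6% in complex I, 85.7% in complex II, 80% in complex III, 46.2% in complex IV and 60% in complex V.

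Over the full promoters, 15 of 73 members held more than 1 kind. Ndufa1 and Ndufs1, named above on other grounds, hold ETS and YY1 letters before the start and are not shown. Upstream sequences are shown for 4 members with more than 1 kind of these motifs before the start, chosen after the matches were seen. They were taken from members named for large changes with osmolality, as isoform pairs or for a small p with time. Each runs 5′ to 3′ over the 250 bases before the start on the gene's strand, with the motifs in capitals, TGCGCA for NRF1, CCGGAAG or its complement CTTCCGG for ETS, and ATGGCGG or its complement CCGCCAT for YY1. A match is a string of letters, not a shown site. Atp5pf is at chr11:37375102-37375351 (minus strand), Cox5b at chr9:46417587-46417836 (plus), Ndufa6 at chr7:115750318-115750567 (minus) and Sdhaf2 at chr1:216592669-216592918 (minus), all in GRCr8.
Atp5pf: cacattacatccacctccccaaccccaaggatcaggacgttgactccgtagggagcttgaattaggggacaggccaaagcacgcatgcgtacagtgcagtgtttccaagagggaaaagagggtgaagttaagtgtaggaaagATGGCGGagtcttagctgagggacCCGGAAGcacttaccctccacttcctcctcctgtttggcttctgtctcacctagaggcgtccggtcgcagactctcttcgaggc
Cox5b: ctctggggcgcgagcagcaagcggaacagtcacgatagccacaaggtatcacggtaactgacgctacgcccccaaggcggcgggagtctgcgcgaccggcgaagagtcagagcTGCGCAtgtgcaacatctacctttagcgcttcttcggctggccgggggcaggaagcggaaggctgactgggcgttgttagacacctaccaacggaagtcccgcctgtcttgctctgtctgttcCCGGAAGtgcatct
Ndufa6: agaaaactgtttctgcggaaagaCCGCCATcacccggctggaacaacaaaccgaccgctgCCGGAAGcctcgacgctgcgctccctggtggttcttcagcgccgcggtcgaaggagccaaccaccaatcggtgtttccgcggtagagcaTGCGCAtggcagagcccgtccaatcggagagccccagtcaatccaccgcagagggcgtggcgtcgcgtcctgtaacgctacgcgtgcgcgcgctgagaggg
Sdhaf2: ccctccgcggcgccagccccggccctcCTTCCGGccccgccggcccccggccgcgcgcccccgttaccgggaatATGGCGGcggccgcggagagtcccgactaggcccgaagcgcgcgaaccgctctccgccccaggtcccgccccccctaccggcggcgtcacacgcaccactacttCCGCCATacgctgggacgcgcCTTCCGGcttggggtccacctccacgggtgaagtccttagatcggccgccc
Atp5pf has the YY1 letters at -108 and the ETS letters at -84, counted from the start to the first base of the match. Cox5b, the zinc-binding accessory subunit of complex IV, has TGCGCA at -137 and ETS letters at -14, Ndufa6 holds all 3 kinds, at -227, -190 and -101, and Sdhaf2 has ETS and YY1 letters, 2 of each, and no TGCGCA in this window. With osmolality at 48 h Cox5b changed by 0.21 ± 0.27, Ndufa6 by 0.01 ± 0.26, Atp5pf by 0.45 ± 0.29 and Sdhaf2 by -0.20 ± 0.18, and none passed. These 4 genes had been named for large changes with osmolality or a small p with time. Their values therefore do not stand for members with such motifs.

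Genes around the complexes were not called for osmolality more often than genes in general. Of 170 genes tested from 7 lists of the wider pathway, 5 passed in the mean of both times (2.94%, against 3.43% of all genes), 1 at 48 h (0.588%, against 1.85%) and 0 at 24 h (against 0.655%). All 5 were lower at 300, as were the markers of other cell types named above, whose part in these falls was not tested. Of 20 regulators of mitochondrial biogenesis tested, 1 passed at 48 h and 2 in the mean of both times, all lower at 300, against 1.33% and 2.1% of all genes, and 0 at 24 h. Ppargc1a, the coactivator that works with NRF1 and the estrogen-related receptors on genes of respiration, lay at -2.22, -2.13 and -1.85 in 300_48h, against -1.30, -1.49 and -1.28 in 640_48h. At 24 h it lay at -2.01, -1.94 and -1.72 in 300_24h, against -1.48, -1.57 and -1.55 in 640_24h. Every array at 300 was lower than every array at 640 at both times. Ppargc1a fell by 0.71 ± 0.16 at 48 h (limma adjusted p = 0.031) and by 0.53 ± 0.11 in the mean of both times (adjusted p = 0.013). On the deposited values neither passed (adjusted p = 0.55 and 0.30). The 48 h call was lost in the limma fit of only the groups compared (adjusted p = 0.059). It was also lost without 5 of the 6 arrays in turn, with adjusted p up to 0.16.

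Esrrb, an estrogen-related receptor, lay at -0.55, -0.74 and -0.50 in 300_48h, against 0.19, -0.32 and -0.02 in 640_48h. At 24 h it lay at -0.52, -0.71 and -0.98 in 300_24h, against -0.09, -0.16 and 0.20 in 640_24h, again with no overlap. In the mean of both times Esrrb fell by 0.63 ± 0.13 (limma adjusted p = 0.010, and 0.0503 on the deposited values, which does not pass). Among the other regulators were Nrf1, Gabpa, Yy1 and Tfam, none of which passed.

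Of 16 genes of the citric acid cycle and its feed tested, Pdha1 and Pc passed in the mean of both times, both lower, against 2.1% of all genes, and 0 passed at 48 h or at 24 h. Pdha1, the alpha subunit of pyruvate dehydrogenase, lay at 3.93, 3.40 and 3.77 in 300_48h, against 4.46, 4.02 and 4.72 in 640_48h, and at 3.93, 3.84 and 3.90 in 300_24h, against 4.38, 4.18 and 4.49 in 640_24h. Pc, pyruvate carboxylase, which makes oxaloacetate, lay at 0.39, -0.31 and 0.16 in 300_48h, against 0.88, 0.48 and 1.19 in 640_48h, and at 0.00, -0.45 and -0.22 in 300_24h, against 0.18, 0.10 and 0.77 in 640_24h. Neither gene's arrays overlapped at either time. Pdha1 fell by 0.58 ± 0.14 (limma adjusted p = 0.030) and Pc by 0.67 ± 0.17 (adjusted p = 0.041). Slc25a30, a mitochondrial carrier abundant in kidney, was the 1 of 12 carriers tested that passed (against 2.1% of all genes lower), and fell by 0.92 ± 0.24 in the mean of both times (adjusted p = 0.046), with overlap at 24 h. On the deposited values none of these 3 passed (adjusted p = 0.22 for Pdha1, 0.082 for Pc and 0.10 for Slc25a30), and each lost its call without most single arrays and without the pair that stood apart at 24 h (adjusted p = 0.10, 0.083 and 0.14). Without that pair Ppargc1a and Esrrb still passed in the mean of both times (adjusted p = 0.048 and 0.020).

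**Figure D5:**
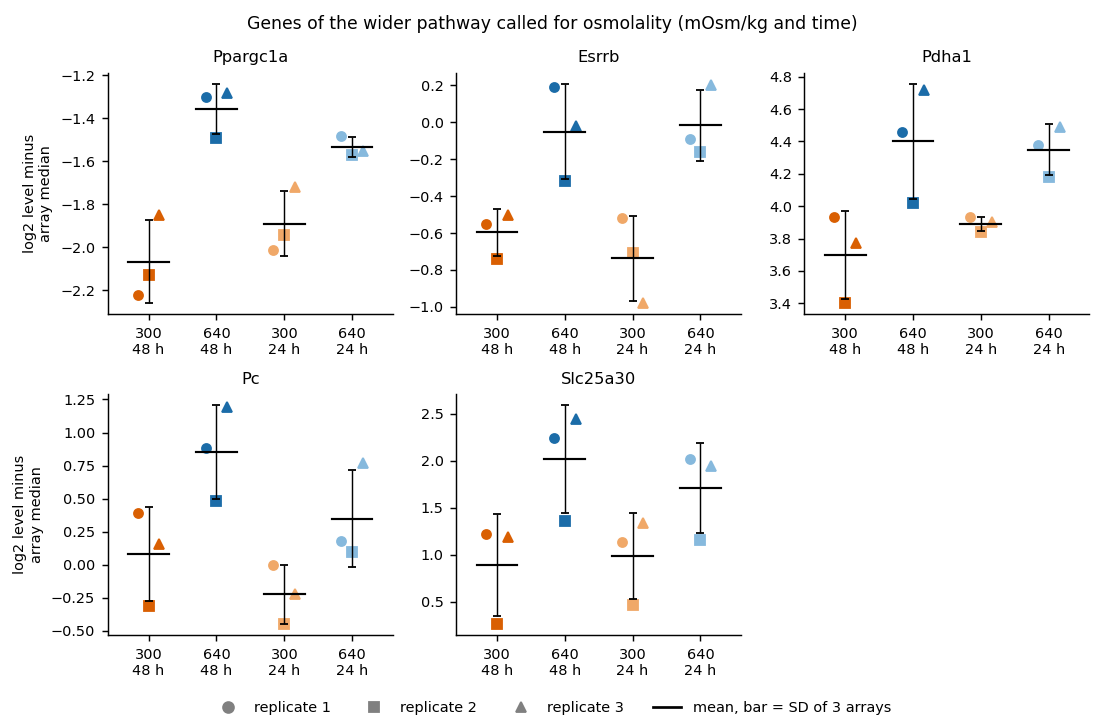
Centred log2 level (y axis, log2 level minus array median; each panel with its own range) of the 5 genes of the wider pathway that passed for osmolality, on each of the 12 arrays; lines and bars are the mean and SD of 3 arrays per group, from 48 h to 24 h with 300 left of 640 mOsm/kg. All arrays at 300 lie below those at 640 of the same time, except for Slc25a30 at 24 h.

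The other lists had 0 calls in limma in any of 6 comparisons: 24 assembly factors outside the name rule and cytochrome c, 68 genes of the mitochondrial ribosome, 18 of fatty acid oxidation and 12 of ubiquinone synthesis. Unadjusted p values under 0.05 in limma at 48 h for osmolality numbered 0 of 24, 3 of 68, 3 of 18 and 1 of 12 in these lists, against 8.18% of all genes. Mitochondrial ribosome genes, which make the proteins encoded in the mitochondrion, had a median change of 0.13 with osmolality at 48 h. Of these, 56 of 68 lay above 0, against 54.6% of all genes. At 24 h the median was 0.04 (39 of 68 above 0, against 40.9%). With time their median was 0.26 at 300 (64 of 68 above 0, against 58.6%) and 0.19 at 640 (52 of 68 above 0, against 50.3%).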

How the data were processed

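Each of 12 RNA samples had 1 Affymetrix Rat Gene 1.0 ST array. The authors deposited log2 expression values per probe set, made by RMA with Affymetrix Power Tools, per the submitters' processing notes. Neither tool's version is given in the sources used here, nor whether the arrays, whose medians differ, went through RMA together. A scale that differs between times shifts every change with time. Scanner files and detection calls were not used here.

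Probe sets were named through the platform's gene table: of 27596, 15310 had 1 symbol, 323 several and 11963 were not listed. Entrez IDs of 15279 matched RefSeq and 31 did not. Of several probe sets of 1 gene, that with the highest mean was kept (14506 genes). Arrays were centred on their medians. The functions lmFit and eBayes of limma 3.58.1 (R 4.3.3) fitted 1 mean per group over all 12 arrays, leaving 8 residual degrees of freedom. The threshold for a call was an adjusted p of 0.05 (Benjamini-Hochberg, over all genes). Errors of changes are moderated standard errors and intervals are 95%. The fit was tested on simulated data. Only 3 arrays per group limit the precision.

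Members, lists and naming rule were chosen with earlier results of these data known. The rule named called members, the largest rise and fall of each complex with osmolality, and isoform pairs. No member was called, so no sequence was due by the rule, and those shown were chosen after the values were seen. Alternatives were 22: other scalings, a filter on dim genes, eBayes settings, array weights, the mean of probe sets, only the groups compared, the replicate block, and leaving out arrays.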

Additional observations from a re-analysis of the deposited data

How the results depend on the processing

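No member was called for osmolality at 48 h or 24 h, or for the difference between times, under any alternative. Array weights called 1 member in the mean of both times, against 10.1% of all genes. They called 24 for time at 300 (23 higher), against 13.1%, and 11 for time at 640 (10 higher), against 6.8%. A fit without 300_24h replicate 1 and 640_24h replicate 3, the low arrays at 24 h, called 4 for time at 300, against 1.51%. The cause was not tested. On the deposited values the members' median change with time reversed, to -0.093 at 300 and -0.198 at 640, as did the median of all genes (-0.383 and -0.415), since 4 of the 6 arrays at 24 h have higher medians. Leaving out each array in turn gave 0 calls in all 6 comparisons, with medians of 0.005 to 0.216 for osmolality at 48 h, -0.029 to 0.141 at 24 h, 0.235 to 0.419 for time at 300 and 0.147 to 0.381 for time at 640. Where an arm was left with fewer arrays, the spread was pooled over all groups. Over single genes and alternatives, 3319 values were labelled as in the report, 56 moved, 40 lost a call and 32 gained one. These labels give no count of changed signs. On the deposited values 20 of 83 members lay above 0 with time at 300, against 76 on centred arrays. At 640 it was 14, against 73.

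With the replicate number as a block, limma called 0 members in all 6 comparisons and the medians stayed at 0.147 for osmolality at 48 h, 0.069 at 24 h, 0.339 for time at 300 and 0.218 for time at 640. The block gained calls among other genes: Slc25a30 at 24 h and 48 h (adjusted p = 0.023 and 0.00037), and Pc and Pdha1 at 48 h (0.029 and 0.027), and the 5 genes called in the mean of both times passed there with adjusted p of 6.3e-05 to 0.0060. The numbers did not pair the samples: deviations of same-numbered samples of the same time correlated between -0.231 and 0.844 over all genes, and 4 of 12 arrays (replicate 2 of each group) were most like their own number at the other osmolality. The other 8 were most like another number at both times, 300 replicate 1 with 640 replicate 3 and 300 replicate 3 with 640 replicate 1, and over all these sets r was 0.576 to 0.844. The labels name no such sets, so no fit takes out what they share, and that remains in the spread behind the errors and overlaps given above. A fit without 1 array keeps the array most like it at the other osmolality, so what they share can shift the medians of those fits. The depth of an array is not defined, and the deposited values carry no signal over background.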
